A study of Papio anubis with 25 samples.

Results

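Pancreatic protease zymogens are the inactive precursors of the digestive carboxypeptidases, chymotrypsins and elastases. The genes were chosen by symbol, from a list of 7, and 5 of the 7 were measured among 21287 genes: the carboxypeptidases CPA1 and CPB1, the chymotrypsins CTRB2 and CTRL, and the elastase family member CELA3B. CTRC and CELA2A were not analysed here. The tissues came from 5 olive baboons (Papio anubis), baboons 1 to 4 female and baboon 5 male, and the labels give no treatment and no genetic change. Each animal gave 1 flash-frozen piece of parotid, submandibular gland, sublingual gland, pancreas and liver, the glands from the left side, so that 25 libraries form 5 groups of 5. RNA was sequenced in bulk from thin sections of each piece, and the values are kallisto estimates in TPM, transcript abundance per transcript length, scaled so that every library has the same sum. The study contrasts salivary glands with pancreas, and pancreas with liver, within the same animals.

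Acinar cells of the exocrine pancreas make these zymogens, store them in granules and release them into the duct. In the gut, enteropeptidase activates trypsinogen, and trypsin then activates the other zymogens. The carboxypeptidases remove residues from the C-terminal end of a chain, whereas chymotrypsins and elastases cut inside it after large hydrophobic and small residues. Inside the pancreas, the trypsin inhibitor SPINK1 limits early activation.

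The depth of each library is unknown, because TPM keeps no read number. The pancreas carried the exocrine genes its label calls for: CLPS, the colipase that anchors pancreatic lipase, was the most abundant gene there at 85086 ± 26060.1 TPM (SD, n = 5). In 4 gland libraries, parotid of baboons 2 and 5 and sublingual gland of baboons 2 and 4, the salivary water channel AQP5 did not exceed its highest liver value of 3.90 TPM. Those 4 and some other libraries held high levels of markers of other cell types. The sum of 4 skeletal muscle genes was 54275 TPM in the sublingual library of baboon 2, against 7.99 to 281 TPM in the other 4, and 4 genes of stratified mucosa summed to 108702 TPM in that gland of baboon 1 and to 47405 TPM in baboon 4, against 246 to 493 TPM in the other 3. Summed levels of 4 adipocyte genes reached 4848 TPM in the parotid of baboon 2 and 1156 TPM in the submandibular gland of baboon 5, and 4 lymphoid genes summed to 849 TPM in the parotid of baboon 5. Their part in the zymogen levels was not tested. The submandibular library of baboon 2 had a summed level of 6 salivary markers of 2197 TPM, against 44009 to 70340 TPM in the other 4. Scaling factors by the trimmed mean of M values (TMM) ran from 0.350 to 2.56 over the 25 libraries.

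The carboxypeptidase CPA1 was the most abundant of the 5 zymogens in every pancreas. CPA1, which removes aromatic and branched C-terminal residues, was at 40562, 31451, 26663, 55949 and 27565 TPM in the pancreas of baboons 1 to 5, 36438 ± 12215 TPM (SD, n = 5), and ranked 5 among all 21287 genes by mean pancreas level. In the other tissues CPA1 was at 44.5, 319, 300.3, 157 and 158 TPM in the parotid, 177, 723, 151, 97.0 and 129 TPM in the submandibular gland, 274, 249, 592, 276 and 137 TPM in the sublingual gland and 415, 237, 219.5, 341 and 284 TPM in the liver, in the same order of animals. The lowest pancreas value lay far above the highest value elsewhere, in the submandibular gland of baboon 2, and the other 4 tissues overlapped one another. Within an animal, the pancreas held 88.8 to 912 times the parotid level of CPA1, 43.5 to 577 times the submandibular level, 45.0 to 202 times the sublingual level and 97.2 to 164 times the liver level.

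CPB1 removes basic C-terminal residues, the ends that trypsin leaves. Its pancreas level was 27025, 15283, 22517, 33707 and 7028 TPM in baboons 1 to 5, 21112 ± 10343 TPM (SD, n = 5), rank 9. Baboon 5 had the lowest value and baboon 4 the highest, a 4.80-fold range that was the widest of the 5 zymogens. CPB1 was at 22.6, 188, 209, 111 and 60.4 TPM in the parotid, 112, 359.6, 102, 65.9 and 95.2 TPM in the submandibular gland, 199.8, 189, 368, 134 and 55.0 TPM in the sublingual gland and 324, 104, 159.8, 238 and 151 TPM in the liver. No library outside the pancreas reached even the low pancreas value of baboon 5. CPA1 exceeded CPB1 in all 5 animals in each of the 5 tissues (exact sign-flip permutation test over animals in pancreas, two-sided p = 0.062, the smallest that 5 animals allow).

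Of the chymotrypsins, CTRL, a chymotrypsin-like protease, was the more abundant. It stood at 19798, 13246, 24129.6, 11813 and 27242 TPM in the pancreas of baboons 1 to 5, 19246 ± 6696 TPM (SD, n = 5), rank 10. Outside it, CTRL was at 20.5, 155, 175, 83.3 and 133 TPM in the parotid, 79.9, 389, 80.6, 62.0 and 70.5 TPM in the submandibular gland, 139.6, 85.9, 371, 134 and 113 TPM in the sublingual gland and 182, 161, 119.9, 187 and 217 TPM in the liver. The submandibular library of baboon 2 and the sublingual library of baboon 3 were the highest outside the pancreas, and both were far below every pancreas library.

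CTRB2, a chymotrypsinogen B, was the least abundant of the 5 in every pancreas. Its values there were 3295, 4033, 3969, 1997 and 4122 TPM in baboons 1 to 5, 3483 ± 893 TPM (SD, n = 5), rank 48. It was at 7.97, 41.9, 52.6, 27.3 and 43.0 TPM in the parotid, 28.9, 138, 28.5, 14.5 and 10.4 TPM in the submandibular gland, 37.4, 20.3, 70.1, 23.5 and 25.1 TPM in the sublingual gland and 25.7, 38.4, 23.5, 43.2 and 68.8 TPM in the liver. As for CTRL, baboon 4 had the lowest pancreas value and baboon 5 the highest, and no value elsewhere came near.

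CELA3B, an elastase family member that cuts after small residues, varied least of the 5 between the pancreases of the animals. Its pancreas level was 15352, 18880.0, 15502, 22423 and 16266 TPM in baboons 1 to 5, 17684 ± 3004 TPM (SD, n = 5), rank 11. In the other tissues CELA3B was at 26.1, 239, 145, 80.9 and 90.2 TPM in the parotid, 83.2, 436, 76.2, 45.4 and 61.6 TPM in the submandibular gland, 136, 119, 315, 133 and 93.1 TPM in the sublingual gland and 165, 142, 103, 191 and 146 TPM in the liver. Again the submandibular library of baboon 2 and the sublingual library of baboon 3 were the highest outside the pancreas, and the 4 tissues there overlapped.

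**Figure D1:**
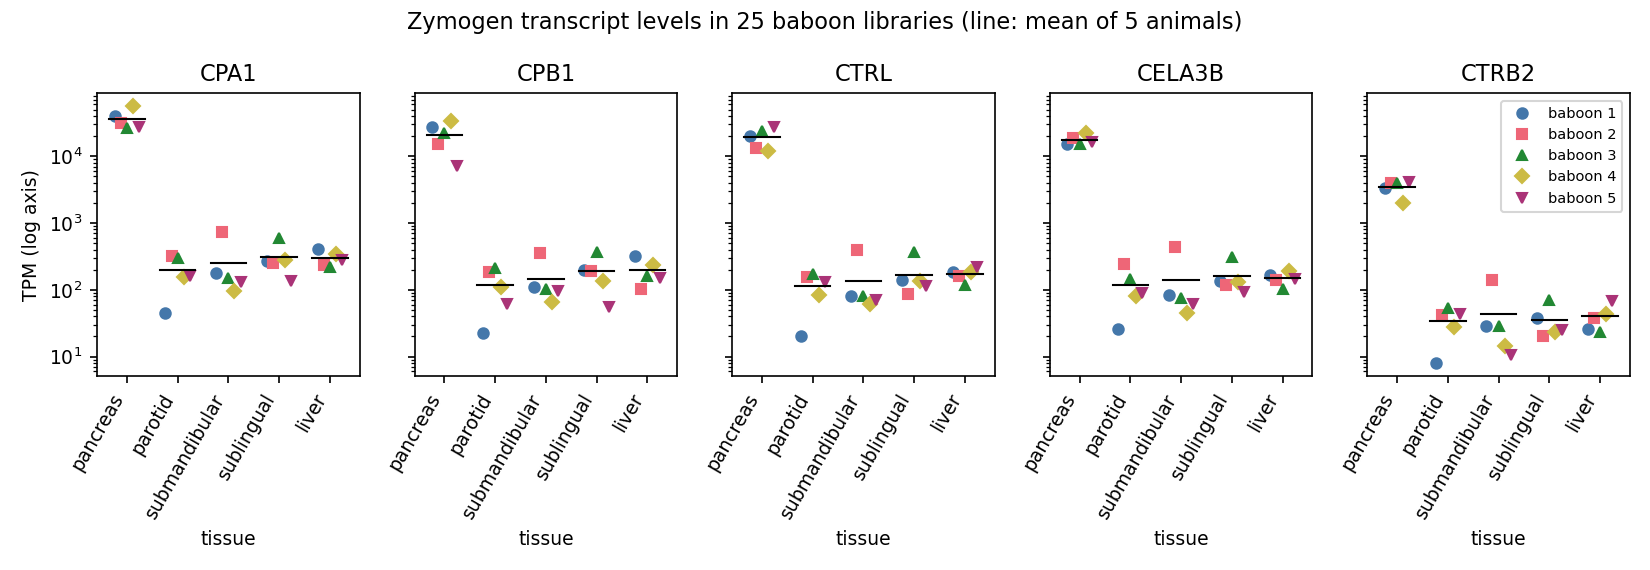
TPM on a log axis of each zymogen gene in the 25 libraries; each marker is 1 animal and each line the mean of 5 animals. Every pancreas library lies above every library of the other 4 tissues for all 5 genes, while those 4 tissues overlap.

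Together the 5 genes made up 9.80 ± 1.83% of the pancreas transcripts (SD, n = 5), a sum of 97963 ± 18348 TPM. The order of CPB1, CTRL and CELA3B in the pancreas did not hold from animal to animal: CPB1 exceeded CTRL in 3 of 5 animals (exact sign-flip permutation test, p = 0.9375) and CTRL exceeded CELA3B in 3 of 5 (p = 0.875). CELA3B exceeded CTRB2 in 5 of 5 animals by 2.38 ± 0.634 on the log2 scale (SD, n = 5; exact sign-flip permutation test, two-sided p = 0.062). The markers of other cell types varied in the same pancreas libraries: the summed level of 6 islet hormones and granule genes ran from 575 to 13816 TPM. The part of this range in the zymogen values was not tested.

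The zymogens did not rank the 5 pancreases alike. Both carboxypeptidases were highest in baboon 4 and next in baboon 1, whereas both chymotrypsins were highest in baboon 5 and lowest in baboon 4. The ratio of CPA1 to CTRL was 2.05, 2.37, 1.10, 4.74 and 1.01 in the pancreas of baboons 1 to 5. The ratio of CPB1 to CTRL ran from 0.258 in baboon 5 to 2.85 in baboon 4, an 11.1-fold range. Ratios within a library do not depend on library scaling. The coefficient of variation between pancreases was 17% for CELA3B, 25.6% for CTRB2, 33.5% for CPA1, 34.8% for CTRL and 49.0% for CPB1. Baboon 5, the lowest for CPB1 and the highest for CTRL, was the only male, so sex and animal cannot be told apart in this contrast.

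**Figure D2:**
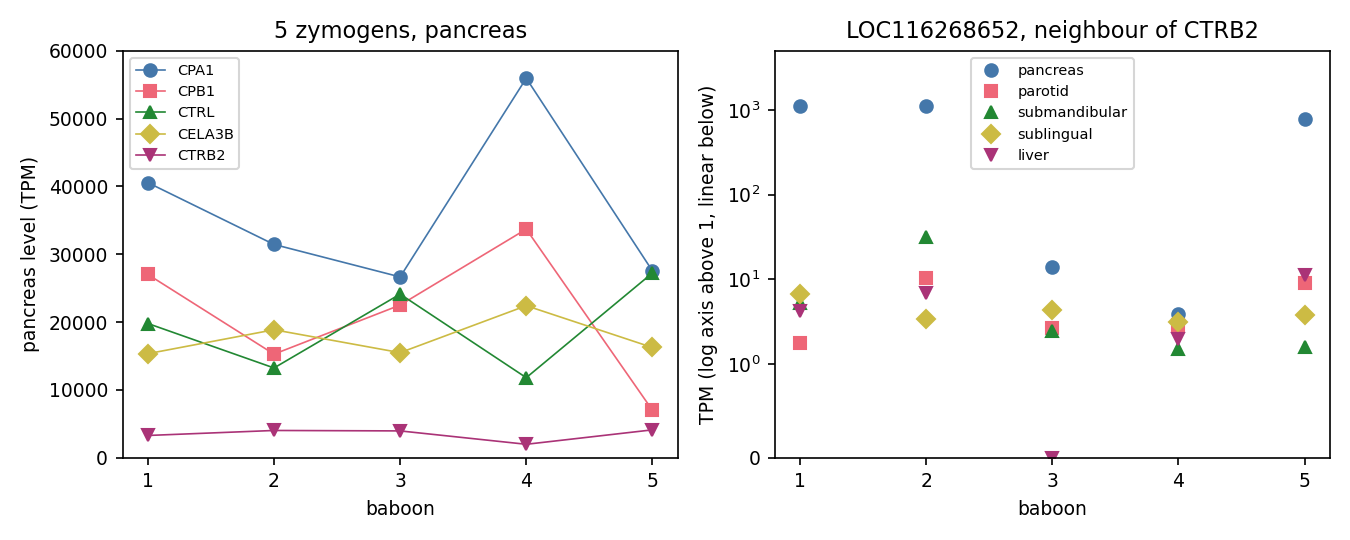
Left, pancreas levels in TPM of the 5 zymogen genes in each baboon, joined by lines only to follow a gene. CPA1 and CPB1 peak in baboon 4, where CTRL and CTRB2 are lowest. Right, TPM of LOC116268652, which lies beside CTRB2, in the 25 libraries (log axis above 1 and linear below); its pancreas values of baboons 3 and 4 are far under those of the other 3 animals.

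The gene beside CTRB2 in RefSeq's Panubis1.0 annotation, LOC116268652, was split between the animals. It was chosen after its values were seen, and its identity was not established. Its pancreas level was 1120.3, 1100.0, 13.9, 3.84 and 773 TPM in baboons 1 to 5, so that baboons 3 and 4 were far below the other 3, while their CTRB2 was at 3969 and 1997 TPM. Relative to CTRB2 in the same pancreas, LOC116268652 was at 34.0%, 27.3%, 0.350%, 0.193% and 18.8%. Outside the pancreas the animals overlapped in TPM. The gene was at 0 to 4.35 TPM over the 8 libraries of baboons 3 and 4 and 1.58 to 31.9 TPM over the 12 of baboons 1, 2 and 5. As a percentage of the own pancreas, these values were 0% to 80.9% in baboons 3 and 4 and 0.156% to 2.90% in baboons 1, 2 and 5. CTRB2 was at 0.592% to 2.16% and 0.242% to 3.42% of the own pancreas in the same libraries. The same animals stood apart for LOC116271818, 1 of 7 LOC genes between EFHD2 and CASP9 that are described further on, also chosen after its values were seen. Its pancreas level was 728, 893, 8.47, 10.03 and 609 TPM in baboons 1 to 5. The split is therefore not confined to the neighbour of CTRB2. How kallisto divided reads among related genes was not tested for CTRB2 or for either LOC gene.

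All 5 zymogens were lower in each of the 4 other tissues than in the pancreas, with log2 fold changes of -7.76 to -6.47. Differences were tested with limma on log2(TPM + 1), a scale on which a pseudocount of 1 shrinks the folds of low genes. A call required both an adjusted p below 0.05 and a log2 fold change of 1 or more in either direction. All 20 tests of a member were called lower (limma, largest adjusted p = 1.01e-08), with SEs of 0.53 to 0.58. The background was low: 2.4% of 14991 genes were called lower in the parotid, 2.81% in the submandibular gland, 2.49% in the sublingual gland and 2.86% in the liver. In bulk tissue, fewer cells of a type and less RNA per cell cannot be told apart.

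By gene, the log2 fold change against pancreas of CPA1 was -7.76 in the parotid, -7.52 in the submandibular gland, -6.99 in the sublingual gland and -6.91 in the liver. CPB1 gave -7.66 in the parotid, -7.25 in the submandibular gland, -6.85 in the sublingual gland and -6.67 in the liver. The chymotrypsin CTRL gave -7.63 in the parotid, -7.47 in the submandibular gland, -6.95 in the sublingual gland and -6.74 in the liver. CTRB2, the least abundant, gave -6.80 in the parotid, -6.84 in the submandibular gland, -6.69 in the sublingual gland and -6.47 in the liver. CELA3B gave -7.55 in the parotid, -7.51 in the submandibular gland, -6.91 in the sublingual gland and -6.89 in the liver. The 4 contrasts share the same pancreas libraries, so their likeness is no separate result. Relative to TPM, TMM scaling moved the median of all genes from 0.45 to 0.08 in the parotid, from 0.17 to 0.03 in the submandibular gland, from 0.63 to 0.11 in the sublingual gland and from 0.44 to 0.02 in the liver, and the members then lay between -8.22 and -7.02 on the log2 scale over the 4 tissues.

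The zymogens were detected in all 20 libraries outside the pancreas. Their sum was 122, 943, 882, 459.8 and 484 TPM in the parotid, 480.4, 2045, 438, 285 and 367 TPM in the submandibular gland, 787, 663, 1717, 701 and 423 TPM in the sublingual gland and 1112, 682, 626, 1001 and 866 TPM in the liver of baboons 1 to 5. The means were 578 ± 338, 723 ± 743, 858 ± 498 and 857 ± 206 TPM (SD, n = 5 each). These groups overlapped. As deposited, the tissue next to the pancreas in level was the liver in baboons 1, 4 and 5, the submandibular gland in baboon 2 and the sublingual gland in baboon 3. With TMM scaling it was the submandibular gland in baboon 1 and the parotid in baboon 4, and unchanged in the other animals. Without the 4 gland libraries low in AQP5, the mean sum was 488 ± 381 TPM in the parotid and 976 ± 667 TPM in the sublingual gland (SD, n = 3 each). Without the library of baboon 2 the submandibular mean was 393 TPM.

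As a share of the same animal's pancreas, the sum was 0.631 ± 0.418% in the parotid, 0.813 ± 0.930% in the submandibular gland, 0.893 ± 0.549% in the sublingual gland and 0.879 ± 0.167% in the liver (SD, n = 5 each). Over the 20 libraries it ran from 0.115% in the parotid of baboon 1 to 2.47% in the submandibular gland of baboon 2, with a median of 0.708%. By gene, the median over 20 libraries was 0.643% for CPA1, 0.761% for CPB1, 0.996% for CTRB2, 0.705% for CTRL and 0.646% for CELA3B. Within a library, the highest of these 5 percentages was 1.25 to 5.35 times the lowest, and CTRB2 was the highest in 11 of 20 libraries.

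**Figure D3:**
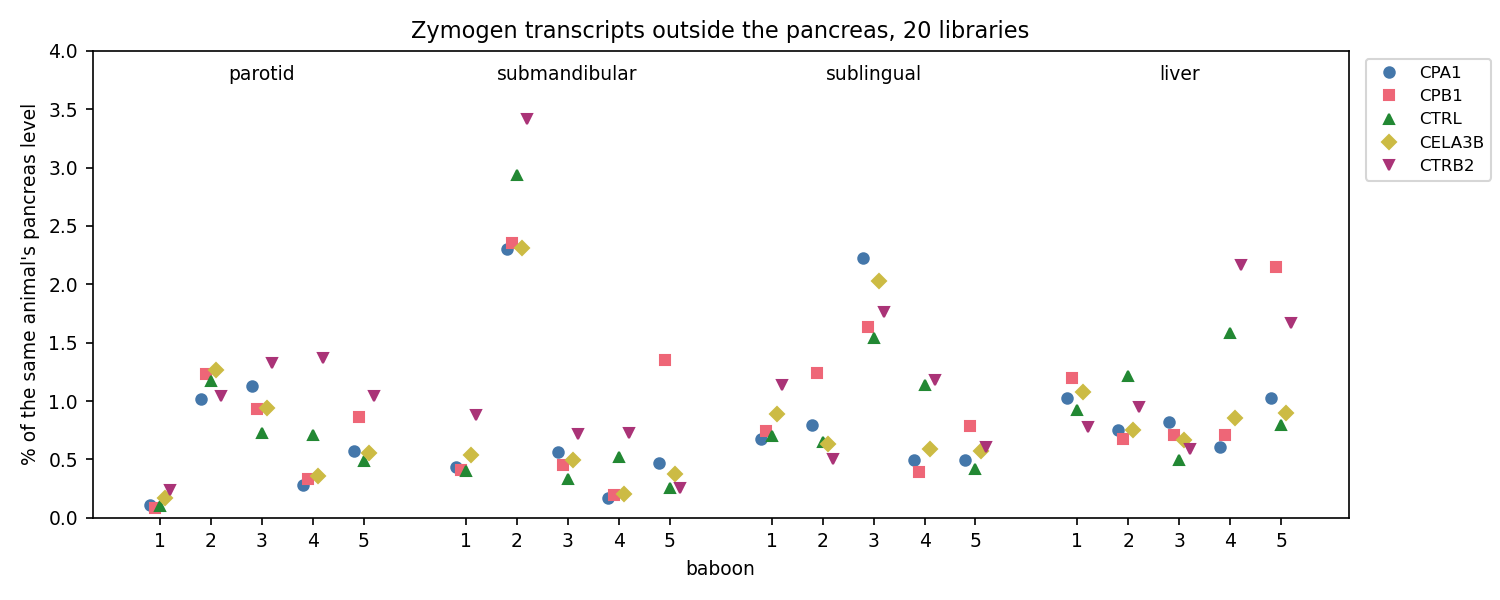
Each zymogen's level in the 20 libraries outside the pancreas, as a percentage of the same animal's pancreas level; markers are genes. In deposited TPM, the submandibular library of baboon 2 is the highest for each of the 5 genes, and the parotid library of baboon 1 is the lowest for each.

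Genes that define other tissues were also found outside their own. ALB, the liver's serum albumin, chosen here after its values were seen, was at 0.177% to 1.49% of the same animal's liver level over the 20 libraries outside the liver, with a median of 0.586%. The lipase CEL was at 0.0899% to 2.07% and CLPS at 0.112% to 2.40% of the same animal's pancreas over the same kind of 20 libraries. INS, the insulin gene of islet beta cells, was less even, at 0.0125% to 61.0% of the own pancreas with a median of 0.927%; its pancreas level itself was lowest in baboon 2 (562 TPM) and highest in baboon 5 (13411 TPM), and the liver of baboon 2 held 343 TPM. PTF1A, a transcription factor that defines pancreatic acinar cells, was at 23.0 to 59.6 TPM in pancreas and 0.0185 to 0.922 TPM elsewhere, at 0 in no library. Over the 20 libraries outside the pancreas, the zymogen sum and the TMM factor had a Pearson r of 0.611 and a Spearman rho of 0.594 on the log2 scale, a description of libraries that share animals and tissues. The sum spanned a 16.8-fold range as deposited and a 6.77-fold range after TMM scaling. By tissue, the range went from 7.18-fold to 2.87-fold in the submandibular gland, from 7.74-fold to 6.77-fold in the parotid, from 4.05-fold to 4.59-fold in the sublingual gland and from 1.78-fold to 1.61-fold in the liver. TMM scaling thus narrowed the submandibular range most and widened the sublingual one. The highest sum outside the pancreas was then 1314 TPM, in the parotid. The highest submandibular sum was then 925 TPM, in baboon 1 and not in baboon 2. The part of these measures in the low zymogen levels was not tested.

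Between the 4 tissues other than the pancreas, no zymogen differed past the threshold. Of 30 tests, limma called 0, and 0 had an unadjusted p below 0.05 (smallest limma adjusted p = 0.298). The log2 differences ran from -0.99 to 0.05 with SEs of 0.53 to 0.58. No difference smaller than 1 could be called, and at these errors larger ones could also be missed. The background was 13.8% of genes called between parotid and liver, 16.5% between submandibular gland and liver and 15.4% between sublingual gland and liver. Between glands it was 0.0% for parotid and submandibular gland, 0.113% for parotid and sublingual gland and 0.0667% for submandibular and sublingual gland. All 5 zymogens had a lower estimate in the submandibular than in the sublingual gland as deposited, and all 5 a higher one with TMM scaling or median-of-ratios scaling, with 0 called under each. The smallest adjusted p over 13 alternatives for these 30 differences was 0.073.

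Comparing the mix of the zymogen transcripts asks whether the low levels elsewhere hold the 5 genes in the proportions of the pancreas. CPA1 made up 36.6 ± 5.86% of the 5-gene sum in pancreas, 34.2 ± 1.42% in parotid, 35.2 ± 1.04% in submandibular gland, 35.8 ± 2.74% in sublingual gland and 34.8 ± 1.68% in liver (SD, n = 5 each). CPB1 made up 20.7 ± 7.51% in pancreas and mean shares of 19.8% to 22.6% in the other 4 tissues. The share of CTRL was 20.6 ± 9.18% in pancreas, against means of 19.0% to 20.6% elsewhere. For every one of these 3 genes the pancreas libraries spread more widely than those of any other tissue.

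CELA3B made up 18.3 ± 3.15% in pancreas and 17.6% to 19.9% elsewhere. CTRB2 was the smallest share throughout, at 3.77 ± 1.43% in pancreas and 6.36 ± 1.60% in parotid (SD, n = 5 each). Its mean share was 5.44% in submandibular gland, 4.23% in sublingual gland and 4.79% in liver. Of 20 shares tested against pancreas within animals, 0 passed (exact sign-flip permutation test over 5 animals, two-sided, smallest p = 0.125, smallest adjusted p = 0.9375), and 5 animals allow no p below 0.062. An unpaired exact permutation of tissue labels, which ignores the pairing within animals, gave 1 of 20 below 0.05, CTRB2 in parotid (two-sided p = 0.0238, adjusted p = 0.476). The tissue and pancreas groups overlapped in 20 of 20 comparisons.

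**Figure D4:**
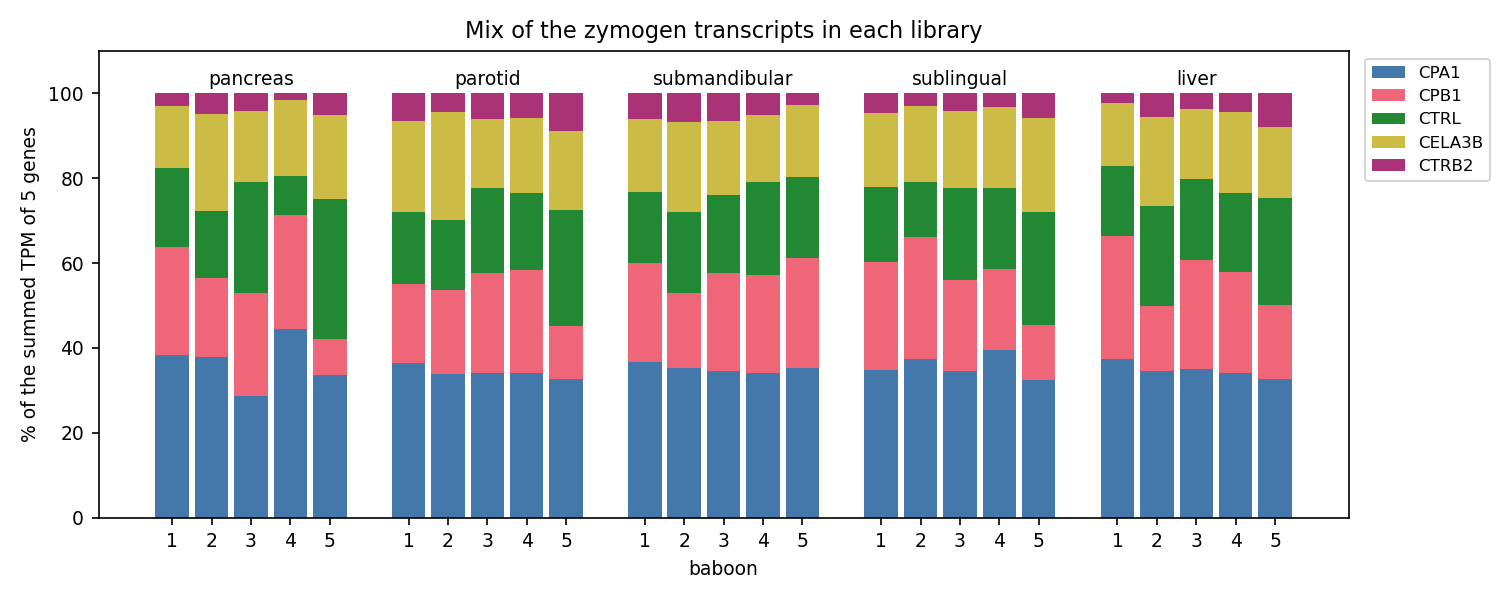
Share of each zymogen gene in the summed TPM of the 5 genes, in percent, 1 bar per library. CPA1 is the largest share in all libraries shown but its lead over CTRL is small in the pancreas of baboons 3 and 5, and the pancreas bars differ from one another more than those of the submandibular gland.

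The mix outside the pancreas was like that of the animal's own pancreas in some animals and ratios and not in others. The distance between 2 mixes was the total of the share differences, in percentage points, over the genes with the higher share in the first mix. Shares add up to the same total in each library, so the distance is the same whichever mix is taken first. Of 20 libraries, 9 were nearest to the pancreas of their own animal, where an even spread over the 5 pancreases would put 4; this count was not tested. The median distance to the own pancreas was 8.10 points, while pancreases differed from one another by 10.1 to 29.1 points. To the mean mix of the 5 pancreases, the own one included, the median distance was 5.68 points. Of the 20 libraries, 14 were nearer to that mean than to the own pancreas. A mean evens out the differences between pancreases, so this count does not show whether a mix follows the own pancreas. The pancreas of baboon 1 was the nearest for 10 of the 20 libraries and that of baboon 4 for 0. The ratio of CPA1 to CTRL ran from 1.19 to 2.90 outside the pancreas, inside the range of 1.01 to 4.74 between pancreases in 20 of 20 libraries. In baboon 4, whose pancreas had the ratio of 4.74, it was 1.88, 1.56, 2.06 and 1.82 in parotid, submandibular gland, sublingual gland and liver. In baboon 5, with 1.01 in pancreas, it was 1.19, 1.84, 1.22 and 1.31 in the same tissues. Averaged over an animal's 4 other tissues, the ratio of CPB1 to CTRL was lowest in baboon 5, as it was in pancreas. That average was 0.748, against 1.17 to 1.43 in the other 4 animals. By tissue, baboon 5 was lowest in parotid (0.455) and sublingual gland (0.487). Baboon 2 was lowest in submandibular gland, at 0.925 against 1.35 in baboon 5, and in liver, at 0.643 against 0.696. In baboon 4, the highest in pancreas at 2.85, the average was 1.17. The ratio of CTRL to CELA3B averaged 0.970, 0.849, 1.15, 1.10 and 1.33 outside the pancreas of baboons 1 to 5, against 1.29, 0.702, 1.56, 0.527 and 1.67 in it. Baboon 5 was thus highest for that ratio in the pancreas and by the average outside it. In the submandibular gland, however, baboon 4 was higher, at 1.37 against 1.14 in baboon 5. Baboon 4 was lowest in the pancreas and baboon 2 by the average outside it.

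Other digestive genes had a like pattern. By root mean square difference of log2 levels relative to pancreas over 25 libraries, the non-member genes nearest to the median of the 5 zymogens were CEL (0.244), CLPS (0.358), the lipase relative PNLIPRP1 (0.365), the phospholipase PLA2G1B (0.436) and the elastase relative CELA1 (0.463), among 429 genes with at least 100 TPM in pancreas. Genes with a LOC identifier were passed over, and 5 of them were nearer than CELA1. The zymogens' own differences from their median were 0.188 for CELA3B, 0.210 for CPA1, 0.319 for CTRL, 0.482 for CPB1 and 0.669 for CTRB2.

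CELA1 was called lower in each of the 4 tissues, with log2 fold changes of -7.45 in the parotid, -7.04 in the submandibular gland, -6.70 in the sublingual gland and -6.49 in the liver (limma, largest adjusted p = 3.39e-09). It was at 9935, 19790.2, 28272, 18055 and 7684 TPM in the pancreas of baboons 1 to 5, highest in baboon 3, where none of the 5 zymogens peaked. Of 18 other acinar secretory products, 10 were measured and all 10 were called lower in each tissue, against 2.4% to 2.86% of all genes tested. Their medians were -7.51 in the parotid, -7.33 in the submandibular gland, -6.79 in the sublingual gland and -6.74 in the liver on the log2 scale. The smallest changes, -1.85 in the parotid and -1.73 in the liver, were those of REG1B, named after its values were seen. It was at only 5.67 ± 8.97 TPM in pancreas (SD, n = 5). The granule protein SYCN was at 1173 ± 479.5 TPM in pancreas and changed by -7.29 in the liver (limma, adjusted p = 8.88e-12), CEL by -6.87 (adjusted p = 2.76e-10). CUZD1 and the chaperone ERP27 changed by -6.32 and -6.30 there. The zymogens' medians were -7.63, -7.47, -6.91 and -6.74 in the same 4 tissues, and the medians of all genes tested 0.45, 0.17, 0.63 and 0.44.

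Further genes with a LOC identifier lie where the human genome holds pancreatic protease genes. In RefSeq's Panubis1.0 annotation, 7 such protein-coding genes lie between EFHD2 and CASP9, an interval that in the human genome holds CTRC and the CELA2 genes. They were chosen after values were seen, and which of them correspond to which human gene was not established. Their sum in the pancreas of baboons 1 to 5 was 63542, 105100.0, 88948, 67899 and 116792 TPM, and 7 of 7 were called lower in each of the 4 tissues. Its order of animals differed from that of the carboxypeptidases, with baboon 5 highest and baboon 1 lowest. Over the 20 other libraries this sum was 0.226% to 2.00% of the own pancreas, against 0.115% to 2.47% for the 5 named zymogens. A further 6 LOC genes beside T-cell receptor segments, the human neighbourhood of the trypsinogens, summed to 145716 ± 32518 TPM in pancreas (SD, n = 5), and 6 of 6 were called lower in each tissue. With CELA1 and LOC116268652, these 20 genes made up 34.9 ± 2.83% of the pancreas transcripts (SD, n = 5), of which the 5 zymogens were 9.80 points.

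The genes that restrain or activate zymogens split by tissue. Of 8 such symbols, 7 were measured and 6 tested. In the liver 2 were called lower and 4 higher, in the parotid and submandibular gland 3 were called lower, and in the sublingual gland 2; 14.6% of all genes tested were called higher in the liver. SPINK1, the trypsin inhibitor secreted with the zymogens, was at 12112, 18106, 14933, 11279.7 and 20606 TPM in the pancreas of baboons 1 to 5. It was at 1009, 1896, 2492, 1895 and 1998 TPM in the liver and at 124 ± 97.8, 148 ± 177 and 163 ± 101 TPM in parotid, submandibular and sublingual gland (SD, n = 5 each). All liver values lay above all gland values.

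Against pancreas SPINK1 changed by -3.07 ± 0.50 (SE) in the liver on the log2 scale (limma, adjusted p = 5.00e-05) and by -7.29 in the parotid (adjusted p = 3.18e-10). Between parotid and liver it differed by -4.21 (limma, adjusted p = 5.44e-07), and no zymogen was called between these tissues; the difference between SPINK1 and the zymogens was not tested. SPINK1 exceeded the summed zymogens in 4 of 5 livers, all but that of baboon 1, and in 0 of 5 libraries of each other tissue. SERPINI2, a serpin of the exocrine pancreas, was called lower in all 4 tissues, with changes of -5.82 to -6.45. SERPINA1, the liver's circulating antitrypsin, was higher in the liver by 6.17 (limma, adjusted p = 2.93e-10). The cathepsin CTSL, a lysosomal protease, was higher in the liver by 2.41 (limma, adjusted p = 0.0408). TMPRSS15, the enteropeptidase of the duodenum, is listed at 0 in all 25 libraries.

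All 7 transcription factors of acinar cells were measured. PTF1A changed by -4.93 to -5.27 and RBPJL, its partner, by -6.37 to -7.16 on the log2 scale over the 4 tissues (limma, largest adjusted p = 1.38e-10 and 3.28e-10). RBPJL was at 422, 699, 592, 441 and 327 TPM in the pancreas of baboons 1 to 5 and between 0.991 and 13.1 TPM elsewhere, the highest being the submandibular library of baboon 2. FOXA3 was called lower in the 3 glands, with changes of -2.47 to -2.96, and in the liver the estimate was 0.92 (adjusted p = 0.0672). XBP1, a factor of secretory cells in general, was called in 0 of the 4 tissues, with estimates of -1.79 to -0.25.

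BHLHA15, a factor of serous secretory cells named here after its values were seen, reached pancreas-like levels in some gland libraries. It was at 115, 40.3, 81.6, 102 and 22.2 TPM in the pancreas of baboons 1 to 5, 47.0, 1.55, 37.2, 82.3 and 55.4 TPM in the parotid and 55.8, 4.03, 26.1, 54.8 and 25.6 TPM in the submandibular gland. Those groups overlapped, and the differences from pancreas of -1.08 and -1.27 were not called (limma, adjusted p = 0.356 and 0.463). It was called lower in the sublingual gland, with a change of -3.12, and in the liver, with -4.26. The sublingual values were 7.08, 1.23, 6.75, 2.45 and 38.5 TPM in baboons 1 to 5. This group also overlapped the pancreas, since 38.5 TPM in baboon 5 lay above the 22.2 TPM in its pancreas. The submandibular library of baboon 2, the highest in zymogens outside the pancreas as deposited but not after TMM scaling, was the lowest of its group in BHLHA15.

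Relatives of the zymogens that act in other tissues did not share the pattern as a group. Of 17 symbols, 13 were measured and 11 tested: 2 were called lower in each tissue, and 2 higher in the liver. Of all genes tested, 2.4% to 2.86% were called lower in these tissues. The count of 2 of 11 higher in the liver lies near the 14.6% of all genes tested that were called higher there, so nothing is read from it about these relatives. The 2 lower ones, CPA4 and CPA5, are carboxypeptidases A at low levels, 26.4 ± 6.86 and 11.1 ± 7.16 TPM in pancreas (SD, n = 5), and changed by -3.38 to -4.22 and by -2.53 to -3.20. The 2 higher in the liver, chosen after their values were seen, were CPB2, the plasma carboxypeptidase that slows clot lysis, and CPN1, a plasma carboxypeptidase N subunit. CPB2 was at 274, 345, 301, 302 and 62.3 TPM in the liver of baboons 1 to 5 and 2.53 ± 1.18 TPM in pancreas, a difference of 6.05 (limma, adjusted p = 8.88e-12). CPN1 rose by 4.75 (adjusted p = 3.43e-12). CPE, which trims prohormones, and CPQ had estimates of -1.03 to 1.01 and -0.43 to 1.03, and neither was called.

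**Figure D5:**
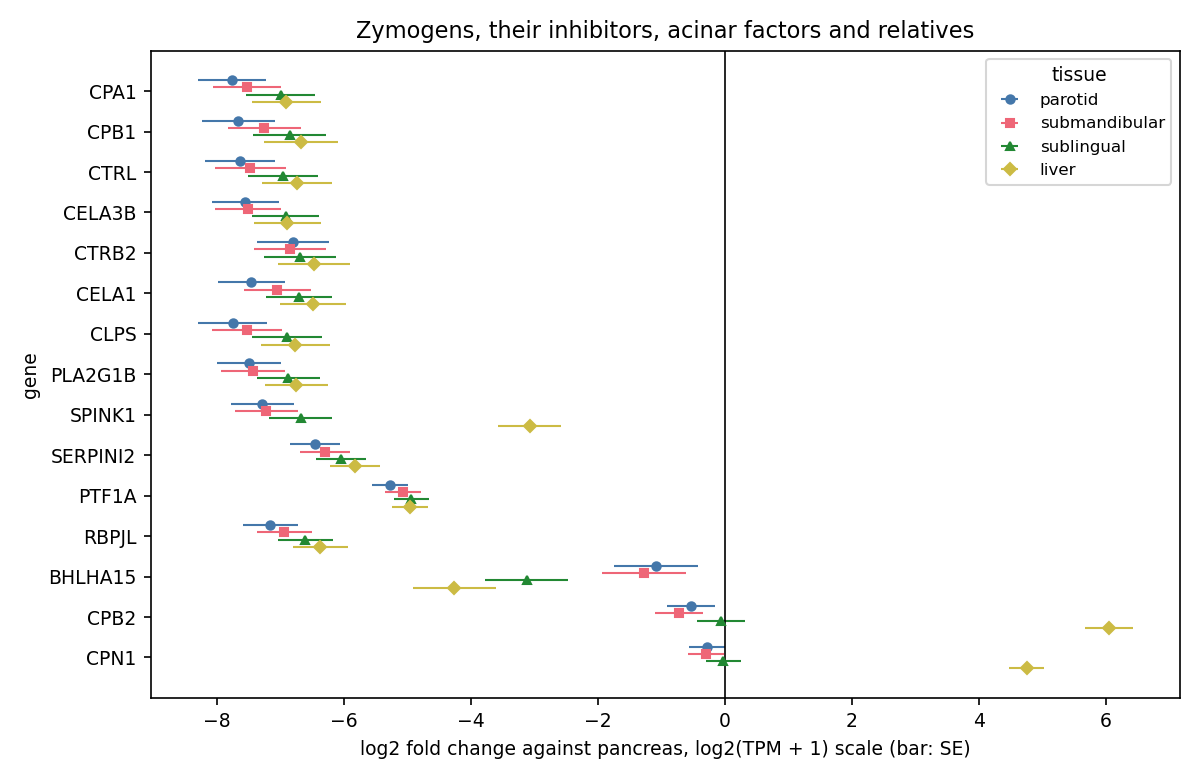
log2 fold change against pancreas (limma, log2(TPM + 1) scale, bars are SE) of the 5 zymogens and related genes in 4 tissues. The zymogens lie between -7.76 and -6.47 in every tissue with CELA1, CLPS and PLA2G1B beside them, while SPINK1 in the liver lies at -3.07, BHLHA15 in the parotid at -1.08, and CPB2 and CPN1 in the liver at 6.05 and 4.75.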

How the data were processed

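The deposited table gives kallisto TPM per gene for 25 libraries, per the labels and the submitters' processing notes; kallisto's version, index and the annotation are not given in the sources used here. The authors scaled TPM to the library, so depth is unknown and no counting error can be given. The members and lists were chosen with earlier results of these data known. All 21287 identifiers matched symbols in RefSeq's Panubis1.0 table, used only for names and neighbours.

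Values were taken as log2(TPM + 1). Every gene whose average reached 1 TPM in any tissue (14991) was fitted with limma 3.58.1 (R 4.3.3), with tissue and animal as terms over all 25 libraries, a trend on the mean, and Benjamini-Hochberg adjustment over all genes tested. Same-numbered libraries come from the same animal, as the labels state; same-animal deviations from tissue means correlated at 0.161 on average, different animals at -0.0354. No pair of libraries was identical. Each group holds 5 animals. The planned sum and shares over 7 genes were taken over the 5 measured, which gave 20 share tests, by exact permutation (scipy 1.17.1), adjusted over those 20. Named list genes are those with the largest and the smallest change of the mean of the 4 other tissues against pancreas, up to 2 each, among list genes with at least 10 TPM in a tissue; genes nearest the zymogens were taken by likeness of pattern; others are said to be chosen after their values were seen. The limma and permutation code was tested on simulated data.

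Alternatives were no block, fewer tissues in the fit, TMM (computed from the TPM values) and median-of-ratios scaling, other filters, a pseudocount of 0.1, leaving out each animal, and leaving out 4 gland libraries low in AQP5. One listed gene is not reported here.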

Additional observations from a re-analysis of the deposited data

Results flagged for a closer look

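Of 55 groups of 5 libraries examined, 10 held a highest library set far apart from the other 4. The nominal rate of the rule is about 1 in 20, which was not checked for TPM values. The groups share libraries, and the sum holds the genes that are also counted singly, so they are not independent. The submandibular library of baboon 2 accounted for 7. It held CPA1 at 723 TPM against 97.0 to 177 TPM in the other 4, CPB1 at 359.6 TPM against 65.9 to 112 TPM, and CTRB2 at 138 TPM against 10.4 to 28.9 TPM. CTRL was at 389 TPM there against 62.0 to 80.6 TPM, CELA3B at 436 TPM against 45.4 to 83.2 TPM, and the 5-gene sum at 2045 TPM against 285 to 480.4 TPM. CELA3B also made up 21.3% of the sum there, against 15.9% to 17.4%. The same library was low in salivary markers (2197 TPM) and had the highest TMM factor of its group, 2.56. After TMM scaling it no longer had the highest sum of its group, which was 925 TPM in baboon 1. The part of these measures in the zymogen levels was not tested.

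The sublingual library of baboon 3 accounted for the other 3 groups. It held CTRL at 371 TPM against 85.9 to 139.6 TPM, CELA3B at 315 TPM against 93.1 to 136 TPM, and the 5-gene sum at 1717 TPM against 423 to 787 TPM.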

How the results depend on the processing

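Over 13 alternatives each, the 20 member differences from pancreas lay between -8.28 and -6.18 on the log2 scale and all were called (limma, largest adjusted p = 0.000106), and 0 of the 30 differences between the other tissues were called (-1.45 to 0.50). Without the animal as a replicate block, 5 of 5 members were called in each tissue against pancreas, 0 between the other tissues and 0 shares. Leaving out each animal in turn gave 5 and 0 members as well, and mean sums of 90982 to 101898 TPM in pancreas, 487 to 692 in parotid, 393 to 833 in submandibular gland, 644 to 967 in sublingual gland and 794 to 915 in liver. Without baboon 2 the submandibular mean was 393 TPM, against 723 TPM with it. TMM scaling moved the pancreas sum from 97963 to 131241 TPM. Of the other named genes' results, 5 became weaker and 14 stronger under an alternative, and 0 reversed.

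The genome-wide counts moved more. Genes called against pancreas were 572, 611, 1419 and 2623 in parotid, submandibular gland, sublingual gland and liver, and 1216, 1276, 1621 and 2742 with TMM scaling, with the share of higher calls moving from 73.6% to 38.6% in the sublingual gland and from 83.7% to 60.5% in the liver. Over all alternatives the counts ran from 315 to 1226, 326 to 1283, 393 to 4132 and 1722 to 4313, and the share of genes called lower stayed between 1.67% and 7.46%. Between the other tissues the counts were 2064 (1335 to 3336) for parotid and liver, 2474 (1535 to 3567) for submandibular gland and liver, 2316 (1543 to 3319) for sublingual gland and liver, 17 (0 to 489) for parotid and sublingual gland, 0 (0 to 11) for parotid and submandibular gland and 10 (0 to 2627, the highest without baboon 2) for submandibular and sublingual gland. Depth could not be weighed, and 5 animals limit the exact tests to p = 0.062.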
